A study of Mus musculus with 14 samples.

Results

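The genes described here are 10 transcription factors of the lens epithelium and the early eye: Pax6, Six3, Sox2, Meis1, Meis2, Foxe3, Pitx3, Tfap2a, Gata3 and Mitf. They were taken by name out of 40853 gene identifiers, with no measured value in the rule, but with earlier results of these data known. Of the 10, 8 reached a mean of 1 TPM (transcript abundance scaled to the same total in every library) over the 14 libraries, as did 12927 genes in all. RNA was sequenced from αTN4-1, a mouse lens epithelial line that comes from transgenic mice in which the αA-crystallin promoter drives a viral T antigen. Each of 7 lines gave 1 library after TGFβ (20 ng/mL for 24 h in medium without serum) and 1 control library. Per their labels, 3 lines overexpress CREB with 1 or 2 point changes (S133A-CREB, R314A-CREB or S133A/R314A-CREB), 1 overexpresses WT-CREB, 1 KCREB and 1 S133A-KCREB. The 7th line carries the Vector. All lines thus share the T antigen and growth in neomycin. CREB is a leucine zipper factor that acts at cAMP response elements. S133A takes away the serine phosphorylated by protein kinase A, R314A is known to weaken binding of CRTC coactivators, and KCREB is a dominant negative that does not bind DNA. Whether controls had serum, and whether a line is 1 clone, is not in the labels, so an effect of TGFβ and one of serum withdrawal cannot be told apart.

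The lens forms from surface ectoderm in which PAX6, a paired-box and homeodomain factor, is required from the start. SIX3, SOX2 and the MEIS proteins act with it in the ectoderm that becomes lens, and PAX6 and SOX2 bind lens enhancers together. FOXE3 keeps lens epithelial cells dividing and in place, PITX3 is needed for the epithelium to persist, and TFAP2A (AP-2α) acts in the ectoderm and in separation of the lens vesicle. GATA3 is expressed in lens fibre cells as they leave the cell cycle. MITF is the master regulator of pigment cells and of the retinal pigment epithelium. TGFβ drives lens epithelial cells toward a fibrotic, mesenchymal state, the process behind some forms of cataract.

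Depth was judged from the coverage that corresponds to 1 FPKM, since the tables hold no read counts. It ran from 5.75 to 10.1 in the TGFβ libraries and from 5.07 to 8.91 in the control libraries. Mitochondrially encoded genes held 5.75% to 8.64% of TPM with TGFβ and 5.59% to 10.8% in control. Creb1, the gene of the overexpressed protein, was examined as a check of the labels. The species of the constructs is not given, so these values may not include the transgene. It had 30.1 and 25.8 TPM (TGFβ, control) in the line labelled KCREB and 38.3 and 34.0 TPM in the line labelled S133A-KCREB, against 23.1 and 20.8 TPM in Vector. In the other 4 lines labelled for CREB it lay between 4.43 and 11.6 TPM, below Vector, so these lines are named as labelled. What this contributes to any difference from Vector was not tested. Of 11 lens epithelial markers 7 passed the filter, among them Cdh2 (146 to 185 TPM with TGFβ, 163 to 248 TPM in control) and Cryab. Foxe3 was listed at 0 in 13 libraries, the gap junction gene Gja1 in 12 and the E-cadherin gene Cdh1 in 5, and the highest value of the 3 genes was 0.249 TPM. The marker list summed to 553.8 to 966.8 TPM with TGFβ and 684.5 to 2536 TPM in control. The list includes 4 of the factors described here (Pax6, Sox2, Foxe3 and Pitx3), and the 5 of 7 that fell include Pax6 and Sox2, against 21.4% of all tested genes.

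To show what precedes the start sites of genes in a study of CREB and TGFβ, the 250 bases before each start were read from RefSeq windows (build GRCm38.p6, while the expression tables use GRCm39). All 10 genes had at least 1 window, 14 windows in all. The cAMP response element TGACGTCA, searched on both strands, stood in 2 of the 14 windows, or 14.3%, against 1.55% of 32851 windows of all genes. One was the upstream start of Pax6 (chr2:105668646-105668895, plus strand) and the other the most downstream of the 3 listed starts of Mitf (chr6:97991533-97991782, plus strand). The window of Sox2 (chr3:34649745-34649994, plus strand), the member with the strongest fall, is shown for comparison and held no such element. Capitals mark the element.
Pax6 window: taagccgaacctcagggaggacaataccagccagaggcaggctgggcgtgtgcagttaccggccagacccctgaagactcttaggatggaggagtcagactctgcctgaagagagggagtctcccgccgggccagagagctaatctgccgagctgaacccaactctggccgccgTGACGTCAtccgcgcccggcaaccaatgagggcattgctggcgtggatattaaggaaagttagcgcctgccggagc
Mitf window: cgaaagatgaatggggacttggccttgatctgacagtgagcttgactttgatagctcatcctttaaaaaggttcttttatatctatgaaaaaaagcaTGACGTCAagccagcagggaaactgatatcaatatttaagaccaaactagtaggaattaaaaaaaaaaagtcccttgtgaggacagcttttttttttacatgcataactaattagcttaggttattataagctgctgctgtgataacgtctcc
Sox2 window: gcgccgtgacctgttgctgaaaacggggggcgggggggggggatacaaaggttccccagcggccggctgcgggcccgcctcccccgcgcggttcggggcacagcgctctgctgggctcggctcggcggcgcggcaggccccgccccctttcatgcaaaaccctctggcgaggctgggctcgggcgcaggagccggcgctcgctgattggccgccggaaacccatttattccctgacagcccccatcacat
In Pax6 the element began 76 bases before the start and in Mitf 153 bases before it. Its core TGACG, which the full element contains, stood in 3 of the 14 windows (21.4%, against 17.8% of all). The SMAD element CAGAC stood in 6 (42.9%, against 42.2% of all), and the SMAD palindrome GTCTAGAC in 0 (0.167% of all). A match of letters is a description and not a binding site, and gene-level TPM does not say which start was used.

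The first question was how the factors differed between TGFβ-treated and control cells of the same line. Sox2, Meis2, Tfap2a, Meis1, Pax6 and Six3 fell with TGFβ, Mitf rose, and Gata3 did not pass. The falls ran from 0.453-fold of control for Sox2 to 0.916-fold for Six3. In numbers, 6 of the 8 tested members fell, against a background of 21.4% of all tested genes that fell, and 1 of 8 rose, against 24.1% (adjusted p under 0.05 in limma on log2(TPM + 1), blocked by line). The median log2 difference was -0.42 over the 8 members and 0.02 over all tested genes. The members were chosen with earlier results of these data known, so these contrasts with all genes are descriptions. Since the 7 lines serve as the replicates, these p-values describe the spread between lines and not between repeat cultures. RNA of a whole culture was measured, so fewer cells that express a gene and less RNA per cell cannot be told apart.

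**Figure D1:**
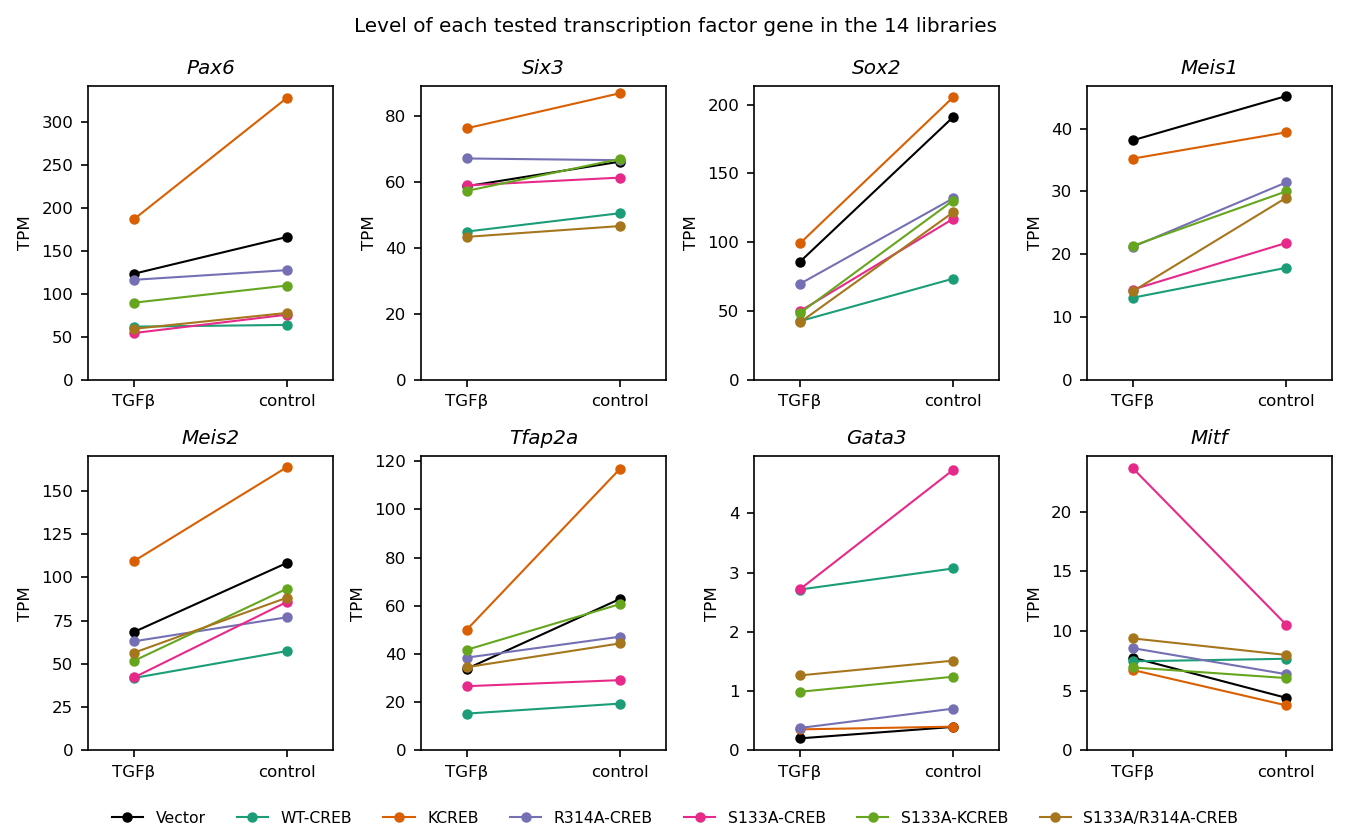
TPM of the 8 tested transcription factor genes in each library, TGFβ on the left and control on the right of every panel, with 1 colour per line and a segment joining the 2 libraries of a line. Sox2 slopes the same way in all 7 lines, between 41.8 and 99.2 TPM with TGFβ and between 73.6 and 205 TPM in control, while the lines keep wide gaps between them for Pax6 and Tfap2a.

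Of the eye field and lens induction factors, Sox2, an HMG-box factor (chromosome 3, 34704144 to 34706610), changed most. Its TPM was lowest at 41.8, had a median of 50.0 and was highest at 99.2 with TGFβ, against 73.6, 130.3 and 205 in control. Every line was lower with TGFβ, and 5 of 7 lines were lower by 2-fold or more, although the groups overlapped. By line, 2-fold falls made up 3.25% of all tested genes in Vector, 0.828% in WT-CREB, 4.16% in KCREB, 2.88% in R314A-CREB, 1.8% in S133A-CREB, 2.66% in S133A-KCREB and 2.92% in S133A/R314A-CREB. The log2 difference was -1.14 ± 0.09 (SE, 95% CI -1.34 to -0.95, n = 7 lines, limma adjusted p = 7.36e-05). The fall was steepest in the line labelled S133A/R314A-CREB, with 41.8 TPM after TGFβ and 122 TPM in control (log2 -1.52). It was smallest in the line labelled WT-CREB, with 42.7 TPM after TGFβ and 73.6 TPM in control (log2 -0.77). That line had the lowest Sox2 level of all control libraries.

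Pax6 (chromosome 2, 105499241 to 105528755) had a TPM of 54.4, 89.7 and 187 (lowest, median and highest) with TGFβ, against 63.9, 109.6 and 328 in control. It was lower with TGFβ in all 7 lines, as were 15.9% of all tested genes, by 0.05 to 0.81 on the log2 scale. The mean difference was -0.36 ± 0.08 (SE, 95% CI -0.55 to -0.18, n = 7 lines, limma adjusted p = 0.00602). Its groups overlapped. In the line labelled KCREB, Pax6 had 187 TPM with TGFβ and 328 TPM in control, the highest value of each treatment. The ratio of Sox2 to Pax6 TPM was lower with TGFβ in all 7 lines. It had a median of 0.690 with TGFβ and 1.15 in control.

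Six3, a homeodomain factor (chromosome 17, 85921036 to 85933619), was the steadiest member. It had 43.4, 58.8 and 76.4 TPM (lowest, median, highest) with TGFβ, against 46.7, 66.3 and 87.0 TPM in control. It was lower in 6 of 7 lines, by 0.06 to 0.22 on the log2 scale, and the line labelled R314A-CREB differed by 0.01. The mean difference was -0.13 ± 0.04 (SE, 95% CI -0.22 to -0.03, n = 7 lines, limma adjusted p = 0.0324). It no longer passed without the line labelled Vector (adjusted p = 0.0816), WT-CREB (0.0625), KCREB (0.0727), S133A-KCREB (0.0849) or S133A/R314A-CREB (0.0587). Nor did it pass the exact Wilcoxon signed-rank test (adjusted p = 0.0699) or in Vector, KCREB and S133A-KCREB alone (limma adjusted p = 0.0569). With 7 lines, that Wilcoxon test passed only genes that moved the same way in all 7, so it restates the count of lines. The 2050 genes it called lower match the 2050 genes that were lower in all 7 lines. The antisense transcript Six3os1, which overlaps Six3 on the opposite strand, had 12.7, 24.3 and 37.5 TPM with TGFβ and 22.2, 49.0 and 72.4 TPM in control. It fell by 0.86 ± 0.08 on the log2 scale (limma adjusted p = 1.59e-04), and its ratio to Six3 was lower with TGFβ in all 7 lines, with medians of 0.481 and 0.734. Whether the counting used strand is not given in the sources used here, so reads of Six3 and Six3os1 may not be cleanly divided. The same holds for Pax6 and Pax6os1, which fell by 0.83 ± 0.23 (limma adjusted p = 0.0157) at 0.822 to 3.14 TPM with TGFβ and 1.02 to 9.64 TPM in control. It also holds for Pax6 and Elp4, which overlaps it on the opposite strand. Elp4 fell by 0.25 ± 0.05 (limma adjusted p = 0.00426), at 9.02 to 15.4 TPM with TGFβ and 11.5 to 17.8 TPM in control. Sox2ot, the transcript that runs over Sox2 on the same strand, fell by 0.53 ± 0.12 (limma adjusted p = 0.00723), at 0.099 to 0.979 TPM with TGFβ and 0.563 to 2.41 TPM in control.

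The TALE homeodomain factors, which bind DNA with PBX partners, both fell. Meis2 (chromosome 2, 115691745 to 115897925) had 41.8, 56.4 and 109.3 TPM (lowest, median, highest) with TGFβ, against 57.4, 88.2 and 164 TPM in control. All 7 lines were lower with TGFβ, from -0.28 in the line labelled R314A-CREB to -1.01 in the line labelled S133A-CREB. The mean log2 difference was -0.64 ± 0.08 (SE, 95% CI -0.81 to -0.46, n = 7 lines, limma adjusted p = 4.44e-04). Meis1 (chromosome 11, 18830428 to 18968992) had 13.1, 21.2 and 38.1 TPM with TGFβ, against 17.8, 30.0 and 45.2 TPM in control. It too was lower in all 7 lines, by 0.16 in the line labelled KCREB and by 0.99 in the line labelled S133A/R314A-CREB. Its mean log2 difference was -0.48 ± 0.09 (SE, 95% CI -0.69 to -0.28, n = 7 lines, limma adjusted p = 0.00256). In a fit of Vector, KCREB and S133A-KCREB alone, the 3 lines with Creb1 at or above Vector, the Meis1 difference was -0.29 and did not pass (adjusted p = 0.0568). Meis2 stood above Meis1 in every library, at 1.79 to 3.99 times its TPM with TGFβ and 2.40 to 4.15 times in control.

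Of the epithelial and anterior segment factors, only Tfap2a was well expressed. Tfap2a (chromosome 13, 40867278 to 40891715) had 15.3, 34.6 and 50.2 TPM (lowest, median, highest) with TGFβ, against 19.4, 47.2 and 117 TPM in control. All 7 lines were lower with TGFβ, with the widest range of any falling member, from -0.13 in the line labelled S133A-CREB to -1.20 in the line labelled KCREB. The mean log2 difference was -0.53 ± 0.12 (SE, 95% CI -0.80 to -0.26, n = 7 lines, limma adjusted p = 0.00638). In Vector, KCREB and S133A-KCREB alone it was -0.87 (adjusted p = 0.0122). Foxe3 (chromosome 4, 114781640 to 114783264) was listed at 0 in 13 libraries and at 0.00455 TPM in the TGFβ library labelled S133A-KCREB. Pitx3 (chromosome 19, 46123720 to 46136764) had a mean of 0.488 TPM and was not tested. It was listed at 0 in both Vector libraries and both WT-CREB libraries. The line labelled KCREB alone reached 1 TPM, with 0.513 TPM after TGFβ and 5.21 TPM in control, and 0.186 and 0.577 TPM were found in the line labelled R314A-CREB. The other 3 lines had 0.0766 to 0.0851 TPM with TGFβ and 0 to 0.0523 TPM in control. A listed 0 may also be an abundance that could not be estimated.

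Of the remaining factors, Mitf rose and Gata3 did not pass. Mitf (chromosome 6, 97783966 to 97998321) had 6.74, 7.77 and 23.6 TPM (lowest, median, highest) with TGFβ, against 3.78, 6.39 and 10.5 TPM in control. It was higher with TGFβ in 6 of 7 lines, by 0.17 to 1.09 on the log2 scale, and differed by -0.04 in the line labelled WT-CREB. The mean log2 difference was 0.46 ± 0.13 (SE, 95% CI 0.17 to 0.75, n = 7 lines, limma adjusted p = 0.0170). The highest value, 23.6 TPM, came from the line labelled S133A-CREB, which had 10.5 TPM in control. Without that line the difference was 0.35 (adjusted p = 0.0350). The call was lost in Vector, KCREB and S133A-KCREB alone (0.52, adjusted p = 0.0508), without a filter on low genes (adjusted p = 0.0600) and by an exact Wilcoxon signed-rank test (adjusted p = 0.0699). A gene higher in 6 of 7 lines could not pass that Wilcoxon test. Gata3 (chromosome 2, 9861889 to 9892762) was low, with 0.203, 0.989 and 2.72 TPM with TGFβ and 0.397, 1.24 and 4.73 TPM in control. Its value was smaller with TGFβ in each of the 7 lines, but the mean log2 difference of -0.24 ± 0.10 (SE, 95% CI -0.45 to -0.02) did not pass in limma (adjusted p = 0.0744). It passed without an intensity trend (adjusted p = 0.0249) and by the exact Wilcoxon signed-rank test (adjusted p = 0.0455). The Wilcoxon result follows from the 7 lower lines alone. At this level the size depends on the pseudocount, with -0.44 at 0.1 and -0.095 at 5.

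**Figure D2:**
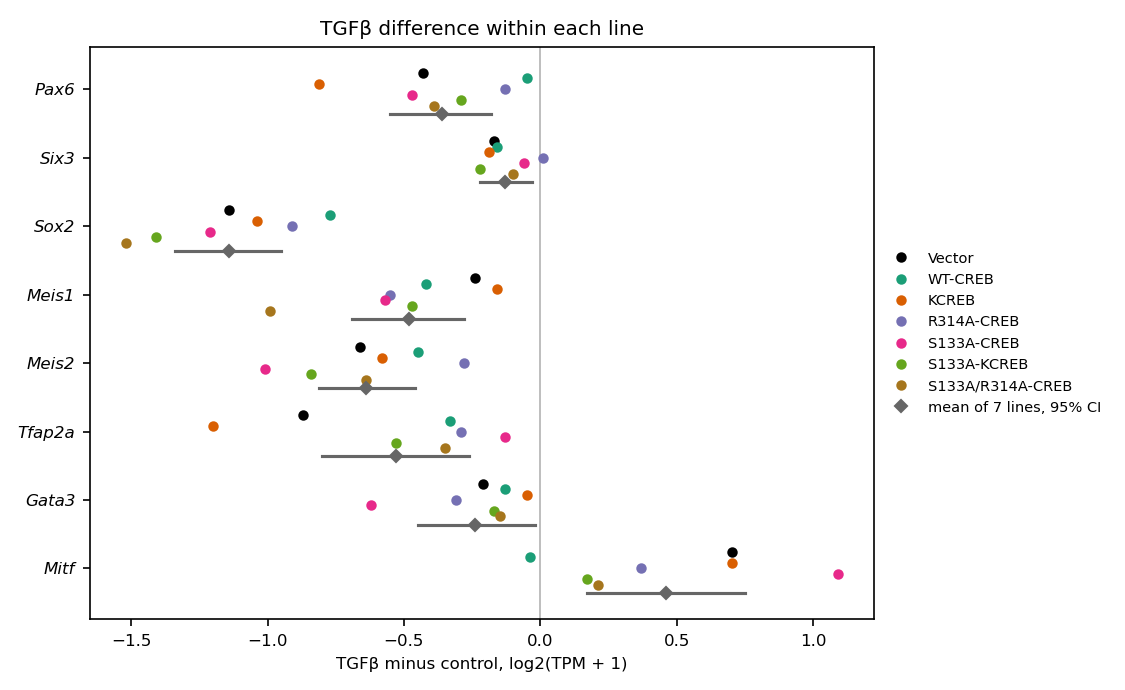
Difference between the TGFβ and the control library of each line in log2(TPM + 1), for the 8 tested members, with 1 coloured point per line and a grey diamond with its 95% CI for the mean of 7 lines from limma. Points of Sox2 lie between -1.52 and -0.77, while Mitf is the only member with its mean to the right of 0.

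The line term matters for these calls. Without it, calls were fewer among all genes, with 4.01% lower and 4.99% higher. Sox2 was then the only member that fell by an adjusted p under 0.05, and Meis2 (adjusted p = 0.0960), Meis1 (0.264), Mitf (0.289), Tfap2a (0.349), Pax6 (0.574) and Six3 (0.647) did not pass (limma). For every one of the 8 tested members the TGFβ and control ranges over lines overlapped, and 2.35% of all tested genes had ranges that did not. The SD between lines of the mean log2 level had a median of 0.49 over the 8 members and 0.25 over all tested genes. It was largest for Pax6 (0.73), Gata3 (0.72) and Tfap2a (0.66) and smallest for Six3 (0.29).

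The second question was how the level in each CREB line compared with the Vector line, with the library of the same treatment as partner. The line labelled WT-CREB had the lowest mean level of 5 of the 6 members that fell with TGFβ, and the line labelled KCREB the highest of 5 of 6. The exceptions were Six3, lowest in the line labelled S133A/R314A-CREB, and Meis1, highest in Vector. No share of all tested genes with these ranks is given beside these counts. The 6 members correlated with each other over line means (r of 0.71 to 0.95), so they are not separate observations and the counts are descriptions. Each line has 1 library per treatment, so neighbours in these orders cannot be told apart by a test, and all 6 comparisons share the Vector libraries. A difference is called here when it reached 1 in log2(TPM + 1), which is 2-fold in TPM + 1, in the same direction in the TGFβ pair and in the control pair. By this rule 8 of 48 member-line pairs were called, or 16.7%, against 3.95% of all gene-line pairs. These were 5 lower, against 2.05%, and 3 higher, against 1.9%. As the members were chosen with earlier results known, these contrasts too are descriptions. By line, the lower share of all genes was 3.84% in WT-CREB, 1.38% in S133A-CREB and 1.72% in S133A/R314A-CREB, and the higher share 2.95% in WT-CREB and 3.84% in S133A-CREB. With a pseudocount of 5 in place of 1, only Meis1 in the line labelled WT-CREB and Pax6 in the line labelled S133A-CREB were called, while the share of all gene-line pairs fell to 1.73%.

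Pax6 was lower than Vector past 2-fold in 2 lines. It had 54.4 TPM with TGFβ and 75.8 TPM in control in the line labelled S133A-CREB, against 123 and 166 TPM in Vector (log2 -1.17 and -1.12). In the line labelled S133A/R314A-CREB it had 59.4 and 77.8 TPM (log2 -1.04 and -1.08). In the line labelled WT-CREB it had 61.9 and 63.9 TPM, past 2-fold in the control pair alone (log2 -0.98 and -1.36). The line labelled KCREB lay above Vector, at 1.51 and 1.97 times its Pax6 TPM. Meis1 was lower in the line labelled WT-CREB, with 13.1 and 17.8 TPM (TGFβ, control) against 38.1 and 45.2 TPM in Vector (log2 -1.47 and -1.29). It was also lower in the line labelled S133A-CREB, with 14.4 and 21.8 TPM (log2 -1.35 and -1.02). All 6 CREB lines had less Meis1 than Vector in both library pairs. For Meis2 the line labelled KCREB stood above Vector instead, at 1.60 and 1.51 times its TPM.

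Tfap2a was lower in the line labelled WT-CREB, with 15.3 and 19.4 TPM (TGFβ, control) against 33.9 and 62.9 TPM in Vector (log2 -1.10 and -1.64). In control cells the line labelled KCREB had 117 TPM of it, or 1.86 times Vector. Sox2 and Six3 were called in no line. Sox2 in the line labelled WT-CREB had 0.497 and 0.385 times its TPM in Vector (log2 -0.99 and -1.36). It missed the call only through the pseudocount of 1, and was called with 0.1 and on FPKM. Six3 stayed between 0.705 and 1.31 times Vector in all 12 library pairs.

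Gata3 and Mitf ran the other way across lines. Gata3 was higher in the line labelled S133A-CREB, with 2.72 and 4.73 TPM (TGFβ, control) against 0.203 and 0.397 TPM in Vector (log2 1.63 and 2.04). In the line labelled WT-CREB it reached 2.71 and 3.07 TPM (log2 1.63 and 1.54). Both are low levels, and Gata3 was lowest in Vector and in the line labelled KCREB. Mitf was higher in the line labelled S133A-CREB, with 23.6 and 10.5 TPM against 7.77 and 4.41 TPM in Vector (log2 1.49 and 1.09). This Mitf call was lost with quantile normalization, on FPKM and with a pseudocount of 5, and both Gata3 calls were lost on FPKM and with a pseudocount of 5. The S133A-CREB line had the most Mitf and the line labelled KCREB the least. Tfec, a relative of Mitf in the MiT-TFE family, was also high in the line labelled S133A-CREB, with 13.6 and 15.0 TPM, against 0.121 and 0.167 TPM in Vector.

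**Figure D3:**
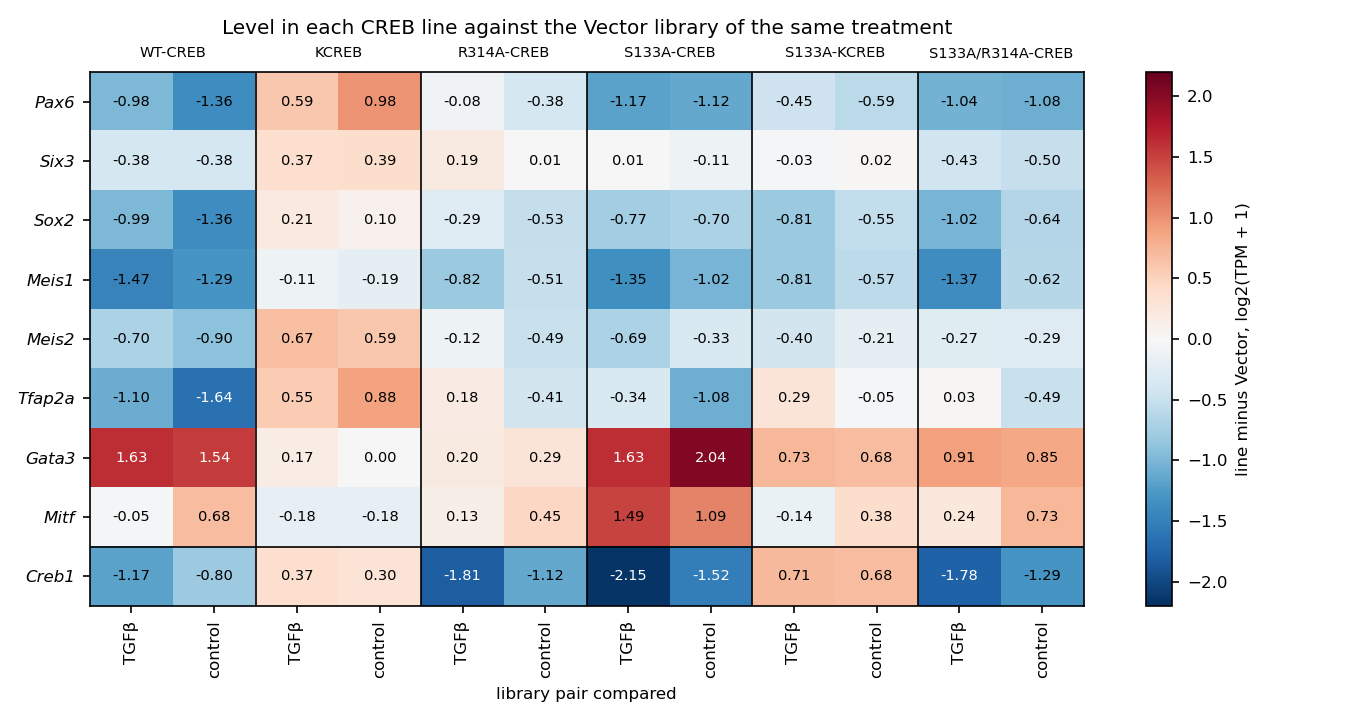
Difference of each CREB line from the Vector library of the same treatment in log2(TPM + 1), with members in rows, Creb1 in the last row, and the TGFβ and the control pair of each line in columns. Blue cells lie below Vector and red cells above it. The columns of WT-CREB hold the value of -1.64 for Tfap2a, and those of S133A-CREB hold 2.04 for Gata3.

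Over the 14 libraries the 6 members that fell with TGFβ correlated with each other across lines and treatments, with Pearson r of 0.66 to 0.91 over 15 pairs (median 0.84). The libraries share lines, so these values are descriptive. The 6 were also grouped by a fall in these same libraries, which favours a positive r over both treatments. No r among all tested genes is given beside it. Over the means of the 7 lines r was 0.71 to 0.95, whereas over the 7 within-line TGFβ differences it was -0.70 to 0.69, with a median of 0.27. The lowest of these was between Meis1 and Tfap2a. The steepest fall was in the line labelled KCREB for Pax6 and Tfap2a, and in S133A/R314A-CREB for Sox2 and Meis1. It was in S133A-CREB for Meis2 and in S133A-KCREB for Six3. Gata3 correlated negatively with Pax6 over line means (-0.86) and so did Mitf (-0.73).

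Genes of like pattern were searched by the same measure over 14 libraries, among genes other than members with a mean of at least 5 TPM. Names that start with Gm or LOC or end in Rik were left out. Of the genes searched, those most like Sox2 were Sema3c, a secreted guidance factor (r = 0.967), Tmem205 (0.962) and Pard3b, a polarity gene (0.954). Sema3c had 19.6 ± 6.21 TPM with TGFβ, against 52.9 ± 24.5 TPM in control (SD, n = 7). It was picked for its likeness to Sox2 over both treatments, so a fall was favoured and these values are a description. The same holds for the other genes of like pattern. Nearest to Pax6 were Ltbp1, which encodes a latent TGFβ binding protein (0.935), Adal (0.932) and Slc35f1 (0.926). Nearest to Six3 were Rilpl1 (0.926), Tkfc (0.923) and Ccdc9b (0.893). Meis1 lay closest to Nabp1 (0.972), the adaptor gene Shc4 (0.970) and Fbxl4 (0.945). Meis2 lay closest to Tctex1d2 (0.955), the kinase gene Rock2 (0.931) and Slc9a7 (0.926). Tfap2a was most like Tmem245 (0.947), Tmem64 (0.939) and Fez1 (0.937). Mitf was most like Tor1aip2 (0.950), Ngdn (0.898) and Rpl30 (0.881).

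The families of these factors held both rises and falls with TGFβ, as did all tested genes. Of all tested genes 24.1% rose and 21.4% fell, which is the background for the count of each related list below. Of 8 tested genes of the MEIS and PBX cofactor list, 1 rose and 2 fell, with a median log2 difference of 0.01. The TALE repressor gene Tgif1 rose to 233 ± 36.8 TPM with TGFβ, against 154 ± 57.8 TPM in control (SD, n = 7; log2 0.67 ± 0.16, limma adjusted p = 0.00741). Pbx3 fell by 0.27 ± 0.04 and Pbx4 by 0.35 ± 0.09, and Tgif2 at -0.21 ± 0.08 did not pass. Meis3, picked by hand and not by its p, had 9.88 and 9.68 TPM (TGFβ, control) in the line labelled WT-CREB. In the line labelled S133A/R314A-CREB it had 7.30 and 6.94 TPM. It was at or under 0.0594 TPM in the other 5 lines. In the SIX-EYA-DACH network, 0 of 5 tested genes passed in limma (median 0.06). The 4 with the smallest p were Eya4 (-0.17 ± 0.09), Eya3 (0.08 ± 0.04), Six4 (0.17 ± 0.13) and Dach2 (0.06 ± 0.11), and all 5 had an unadjusted p above 0.05. None of the 5 moved the same way in all 7 lines, so none could pass the exact Wilcoxon signed-rank test, which adds nothing here. Six4 was highest in the line labelled WT-CREB, at 22.4 and 25.7 TPM, against 8.73 and 4.98 TPM in Vector.

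Among SOX relatives, 1 of 4 tested genes rose and 1 fell (median -0.06). Sox4 rose to 225 ± 77.0 TPM with TGFβ, against 104 ± 60.0 TPM in control (SD, n = 7; log2 1.27 ± 0.20, limma adjusted p = 0.00128). It was higher in all 7 lines, the opposite of Sox2. Sox13 fell by 0.63 ± 0.10, while Sox21 (-0.44 ± 0.18) and Sox9 (0.32 ± 0.17) did not pass. Of 3 tested AP-2 and GATA relatives Gata2 rose, by 0.31 ± 0.06, and Gata6 (-0.15 ± 0.08) and Gata4 (0.01 ± 0.08) did not pass. Tfap2b, Tfap2c, Tfap2d and Gata5 were listed at 0 in all libraries. Of the MiT-TFE relatives Tfeb, a regulator of lysosomal genes, fell to 11.7 ± 1.54 TPM with TGFβ, against 18.2 ± 3.29 TPM in control (SD, n = 7; limma adjusted p = 8.94e-04). Tfe3 rose by 0.13 ± 0.04 and Tfec (-0.12 ± 0.12) did not pass.

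Among other lens and eye regulators, 2 of 9 tested genes rose and 3 fell (median -0.23). Mab21l1, which lens placode growth needs, fell to 22.5 ± 11.4 TPM with TGFβ, against 74.6 ± 71.1 TPM in control (SD, n = 7; log2 -1.35 ± 0.19, limma adjusted p = 8.21e-04). Its control level was 213 TPM in the line labelled KCREB and 131 TPM in Vector, and 20.0 to 49.2 TPM in the other 5 lines. The forkhead gene Foxc1 fell by 0.65 ± 0.08 and the LIM homeodomain gene Lhx2 by 0.29 ± 0.07. The Notch ligand gene Jag1 rose by 1.45 ± 0.17. Of the lens fibre regulators, 3 of 8 rose and 3 fell (median -0.26). Prox1, a homeodomain factor of fibre differentiation, fell by 0.73 ± 0.16 and the heat shock factor gene Hsf4 by 0.46 ± 0.11. Prox1 had 26.7 and 66.3 TPM (TGFβ, control) in the line labelled KCREB and 20.0 and 48.8 TPM in Vector, but 2.73 and 2.75 TPM in the line labelled WT-CREB. Mafg rose by 0.25 ± 0.06, and Tdrd7, an RNA granule gene of the lens, fell by 0.33 ± 0.09.

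Of 29 crystallins and other lens targets of these factors, 7 passed the filter, and 4 of those fell with none higher. Crygs and Bfsp2, 2 of the 4, averaged under 1 TPM with TGFβ and passed the filter only through their control values, so a fall was favoured for them and the count is no more than a description. Cryab, the small heat shock protein αB-crystallin, fell to 399 ± 99.7 TPM with TGFβ, against 908 ± 507 TPM in control (SD, n = 7; limma adjusted p = 0.00152). Lctl fell by 1.39 ± 0.27 and the beaded filament gene Bfsp2 by 0.55 ± 0.14. Crygs also fell, with 0 listed in each TGFβ library and 0 to 8.77 TPM in control, highest in the line labelled KCREB. Cryaa, the crystallin whose promoter PAX6 binds, had 5.07 to 18.2 TPM with TGFβ and 2.96 to 27.4 TPM in control and did not pass. Of 15 MITF targets of pigment cells 4 were tested, and 0 rose, also at an unadjusted p under 0.05. Gpnmb, a lysosomal glycoprotein, fell to 113 ± 53.5 TPM, against 311 ± 130 TPM in control (SD, n = 7; log2 -1.51 ± 0.18, limma adjusted p = 3.74e-04). Met (0.16 ± 0.10), Pmel (-0.14 ± 0.11) and Rab27a (0.07 ± 0.12) did not pass. The highest value of the pigment enzyme genes Tyr, Tyrp1 and Dct in any library was 0.0516 TPM.

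**Figure D4:**
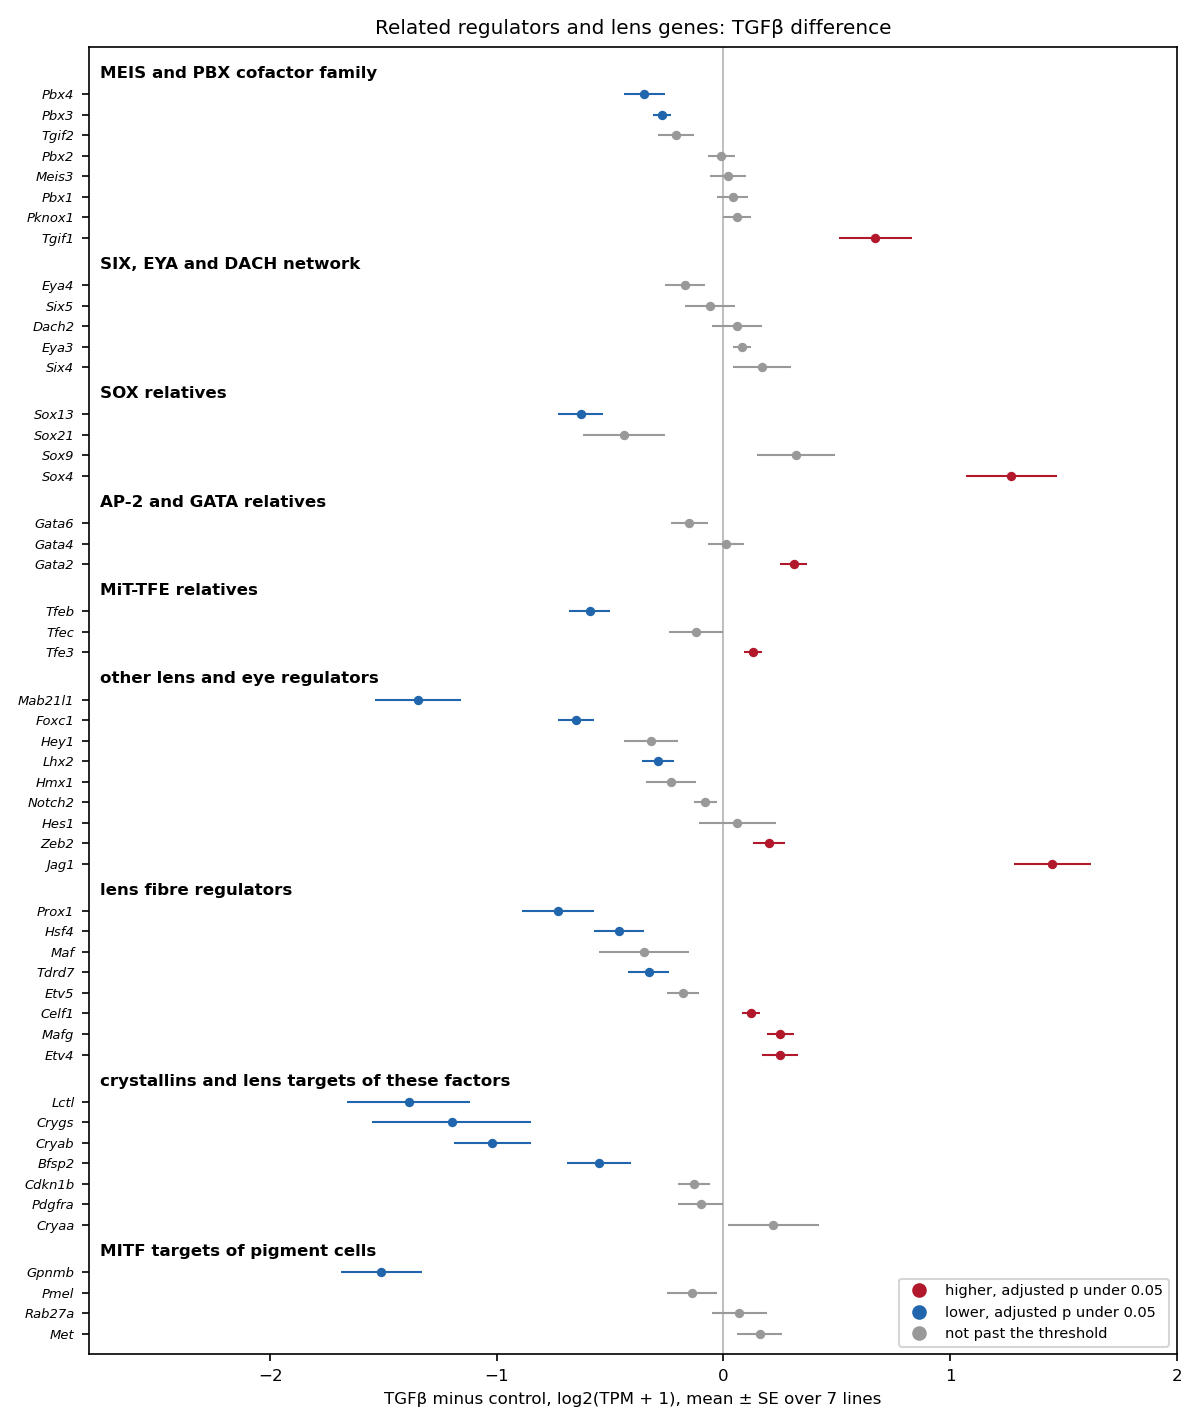
TGFβ minus control difference in log2(TPM + 1), mean ± SE over 7 lines, for tested genes of 9 lists related to the members. Red points are higher and blue points lower at an adjusted p under 0.05 in limma, and grey points did not pass. Sox4 (1.27) and Jag1 (1.45) lie farthest to the right, and Gpnmb (-1.51) farthest to the left.

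Markers of other cell types moved with TGFβ as well, and their part in the results above was not tested. The background is again 24.1% of all tested genes higher and 21.4% lower. The 12 lens fibre markers summed to 43.0 to 66.8 TPM with TGFβ and 48.0 to 204 TPM in control, and Lim2 and Crybb2 were at 0 throughout. Of 6 tested, 5 fell, among them Crygs and Bfsp2, which entered through their control values alone. Of 8 tested mesenchymal markers 3 rose (Fn1, Col1a1 and Col1a2), 4 fell (Vim, Prrx1, Twist1 and Acta2) and Col3a1 did not pass. Fn1 rose by 2.03 ± 0.23 on the log2 scale, while Acta2 fell by 1.07 ± 0.17. The mesenchymal list summed to 6193 to 7984 TPM with TGFβ and 6357 to 11855 TPM in control, and Lum was at 0. The 10 markers of retinal pigment epithelium and melanocytes summed to 1.13 to 3.41 TPM with TGFβ and 1.45 to 2.83 TPM in control, with Ttr and Dct at 0, and the 1 tested (Pmel) did not pass. The 11 retinal and neuronal markers summed to 2.35 to 74.4 TPM and 2.23 to 8.67 TPM, and Tubb3 rose while Rax and Otx2 were at 0. Tubb3 reached 71.0 TPM with TGFβ and 7.31 TPM in control. Of the corneal and surface ectoderm markers, 8 in the tables summed to 114 to 956 TPM and 277 to 2283 TPM, mostly Aldh3a1, which fell. Krt14 and Sfn rose and Krt15 was at 0. The 7 macrophage markers summed to 18.9 to 52.4 TPM and 29.5 to 93.2 TPM, with Lyz2 lower, Cd68, Csf1r and Aif1 higher and Adgre1 at 0. The 7 endothelial markers summed to 2.21 to 5.15 TPM and 1.39 to 3.53 TPM, and the 1 tested (Esam) rose.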

How the data were processed

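The 14 tables hold gene values with the column layout of StringTie gene abundances. The submitters' processing notes name GRCm39, STAR 2.7.6a, StringTie 2.0.4 and edgeR, without roles. Neither the annotation release nor the strand setting is stated there. TPM as deposited by the authors sums to 1000000 per library. FPKM, and the coverage signal per base, were also deposited by the authors, per the file headers. Values on lines with the same gene identifier were summed. Read counts are absent from these tables, which leaves depth as a ratio only: the modal coverage per FPKM.

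The fit used log2(TPM + 1), a scale that understates the change of low genes. It covered 12927 genes whose average reached 1 TPM, in limma 3.58.1 (R 4.3.3), and took the line as a block and an intensity trend. P-values were two-sided and adjusted by Benjamini-Hochberg over all these genes. The line label pairs its libraries: deviations from the treatment means correlated with r of 0.614 to 0.845 within a line and 0.275 or less between lines. No libraries were duplicates. The members, gene lists and tests were chosen with earlier results of these data known. All members were named, with up to 4 genes per related list by smallest p and 3 genes of like pattern per member at a mean of at least 5 TPM. Other genes, among them Meis3 and Cryaa, lie outside this rule and were picked by hand with results of these data known. Some genes of the related lists are not reported here. The fit was also run on simulated data with known changes added and with noise drawn independently for each gene. That run does not test the calls made here.

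Alternatives to these choices covered the pseudocount (0.1, 5), the filter (none, or 5 TPM), the scaling (median-of-ratios, quantile), TPM without mitochondrially encoded genes, FPKM, no trend, an exact Wilcoxon signed-rank test, no block, leaving out each line, and a fit of 3 lines alone (Vector, KCREB and S133A-KCREB), those with Creb1 at or above Vector.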

Additional observations from a re-analysis of the deposited data

Results flagged for a closer look

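In 4 of 27 sets of 7 values examined, 1 value stood apart by Dixon's criterion, which independent normal sets meet in about 1 of 20 by chance. These sets are not independent, since the differences of a gene come from its TGFβ and control sets. The 2 rates therefore cannot be compared. Mitf in the TGFβ library labelled S133A-CREB was at 4.62 in log2(TPM + 1), against 2.95 to 3.38 in the other 6 TGFβ libraries. Pitx3, listed at 0 in 5 libraries, accounted for the other sets, all in the line labelled KCREB. Its TGFβ library was at 0.60, against 0 to 0.25 in the others. Its control library was at 2.64, against 0 to 0.66 in the others. The difference between them was -2.04, against -0.41 to 0.12 in the other lines.

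In 2 cases a single line went against the other 6 in its TGFβ difference. Six3 differed by 0.01 in the line labelled R314A-CREB, against -0.22 to -0.06 in the others. Mitf differed by -0.04 in the line labelled WT-CREB, against 0.17 to 1.09 in the others. With 1 library per side in each line, these differences between lines were not tested.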

How the results depend on the processing

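All 8 tested members kept their direction under every alternative run, and Sox2 also kept its call, with differences of -1.21 to -1.08. The number of members that fell was 5 to 6 when a line was left out (17.8% to 21.4% of all genes fell), 7 without an intensity trend (21.1%), 4 in the fit of Vector, KCREB and S133A-KCREB alone (1808 of 12927 genes fell) and 1 with no replicate block (Sox2; 4.01%). It was 6 with no filter (8.56%) and by the exact Wilcoxon signed-rank test (15.9%), where Six3 was lost and Gata3 gained, and 6 in the other settings (20.9% to 23.0%). Calls by the Wilcoxon test only restate which genes moved the same way in all 7 lines. The 1 member that rose, Mitf, remained at 1 when any line was left out. It became 0 with no filter, by the exact Wilcoxon signed-rank test, in those 3 lines and with no replicate block (limma in the others). At an unadjusted p under 0.05 it was 1 in each of these but 0 without the block. Of 151 values of single members under alternatives, 132 stayed on their side of the threshold, 17 were no longer past it and 2, both of Gata3, came to pass it. Against Vector, the 8 member-line pairs became 2 with a pseudocount of 5 (1.73% of all pairs) and 11 with 0.1 (5.82%). On FPKM there were 7 (2.29%), of which 5 were shared: both Gata3 pairs and Mitf in S133A-CREB were lost, and Pax6 and Sox2 in WT-CREB gained. Quantile normalization lost Mitf in S133A-CREB, the filter at 5 TPM lost both Gata3 pairs, and the 8 pairs were the same in the other settings. Under 4 other scalings 0 of the 43 called related and marker genes reversed, and the calls of Celf1, Zeb2, Etv4, Vim and Cd68 were lost in at least 1 of them. Foxe3 and Pitx3 were tested only with no filter. The cause of the lost calls was not tested. Depth is known only as a ratio, so no counting interval can be given for the low levels of Gata3, Pitx3 and Foxe3.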
